A study of Mus musculus with 14 samples.

Results

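Saa3, Hp, Ptx3, Lcn2, S100a8 and S100a9 encode secreted proteins of the acute-phase and antimicrobial response, and their transcripts were followed through sequential stimulation of mouse macrophages. These 6 genes were selected on earlier results of the same values, in which Saa3 and S100a8 had been noted, and each had 1 entry of its own among the 37862 named entries of the deposited expression table. Polyadenylated RNA came from bone marrow-derived macrophages of male C57Bl6/J mice aged 6 to 12 weeks, cultured in medium with L929-conditioned supernatant as the source of the growth factor CSF-1. The first stimulus, lasting 24 h, was PBS, a buffer, or 100 ng/mL of Poly I:C. The cells were washed and then given either PBS or LPS, with RNA collected 2 h or 6 h later. TLR3 senses Poly I:C, a synthetic mimic of viral double-stranded RNA, and TLR4 senses LPS from the outer membrane of Gram-negative bacteria. The labels gave no dose for LPS as the second stimulus.

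There were 8 groups in 14 libraries. The PBS-then-LPS, Poly I:C-then-PBS and Poly I:C-then-LPS groups held 2 libraries at each time, and the PBS-then-PBS groups held 1 library at each time. The comparisons asked how LPS, Poly I:C and the order of both altered each transcript. Comparisons at a given time shared groups, so their values are set side by side and are not independent of each other. The labels do not state whether replicates are separate animals or cultures. The p-values therefore measure only the spread between these libraries, and that spread may be technical.

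Acute-phase proteins are secreted in large amounts when cytokines such as IL-6 and IL-1 signal infection or injury, mostly by the liver, and macrophages make several of them locally. Their genes are typical targets of NF-kB, of the C/EBP transcription factors and of STAT3. Serum amyloid A3, the product of Saa3, is a serum amyloid made outside the liver in mice. Haptoglobin, from Hp, binds free haemoglobin, and pentraxin 3, from Ptx3, is a soluble pattern recognition molecule that binds microbes and complement. Lipocalin 2, from Lcn2, withholds iron from bacteria by binding their siderophores. S100A8 and S100A9 pair to form calprotectin, which binds zinc and manganese and is a major cytosolic protein of neutrophils and monocytes.

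Promoter sequence was available from RefSeq (build GRCm38.p6) for 5 of the 6 genes, all except Hp, as windows from 250 bases before to 50 bases after the annotated start. The motif TTGCNNAA, a pattern of the kind bound by C/EBP proteins, was searched on both strands. It was present in 4 of the 5 windows, those of Saa3, Lcn2, Ptx3 and S100a9, and in 10.8% of all 32851 windows of that length. The stretches holding it in the 3 of these genes whose transcript was detected are shown 5′ to 3′ in the direction of transcription, with the match in capitals. Those of Saa3 and Ptx3 hold it in reverse complement.
Saa3 (chr7:46715757-46715786, minus strand): ggtaagtgggaTTATGCAAgatcaaacagg
Lcn2 (chr2:32387937-32387966, minus strand): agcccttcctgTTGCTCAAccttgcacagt
Ptx3 (chr3:66219819-66219848, plus strand): gtggtttaacaTTGTGCAAcctcttcagct
The matches began 99 bases before the start of Saa3, 216 before that of Lcn2 and 57 before that of Ptx3.

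The upstream sequence of Saa3 is given at greater length because this transcript reached the highest level of the group. Its 200 bases from 250 to 51 before the start (chr7:46715727-46715926, minus strand) hold that match and a further one in capitals, to GAAA, any 2 bases and GAAA again, a pattern of the kind bound by interferon regulatory factors.
Saa3 upstream: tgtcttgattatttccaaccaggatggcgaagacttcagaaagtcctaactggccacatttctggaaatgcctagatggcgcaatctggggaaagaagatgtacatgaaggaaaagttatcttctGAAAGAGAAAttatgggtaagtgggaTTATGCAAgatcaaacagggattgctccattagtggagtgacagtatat
This second pattern was found in 1 of the 5 windows and in 3.44% of all windows. A consensus for NF-kB was matched in the window of Ptx3 alone among the 5, at 2 overlapping positions at the start site, and in 4.51% of all windows. TTCNNNGAA, of the kind bound by STAT proteins, was in 0 of the 5 and in 8.30% of all windows. Each match describes letters in a fixed window and does not show binding.

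Levels are FPKM, fragments scaled to transcript length and library size, as deposited. They can be compared between genes because they are divided by length. Differences between groups are differences of mean log2(FPKM + 1), given with a standard error (SE). They understate the change of transcripts near or under 1 FPKM. Of the 6 genes, 5 reached 1 FPKM in at least 2 libraries and were among the 11977 entries fitted together. S100a9 did not. Lcn2, Ptx3 and Hp have a limma p-value, Benjamini-Hochberg adjusted over all 11977 entries, with a call at an adjusted p under 0.05. Saa3 and S100a8 are described with no test. Absolute depth is unknown. Judged by the spacing between low values, 1 fragment was worth up to 3.10-fold more FPKM in one library than in another. Replicates correlated at r = 0.974 to 0.988 across entries, which are not independent replicates.

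The macrophage label was checked against markers. All 9 listed macrophage genes passed the filter, with a summed level of 5369 to 20644 FPKM. The sum was lower in every library given Poly I:C (5369 to 8669) than in every library given PBS first (13879 to 20644). Much of it was Lyz2, at 2408 to 4397 FPKM after Poly I:C and 10930 to 16240 FPKM after PBS. Poly I:C before LPS, here and below, means Poly I:C then LPS compared with PBS then LPS. In that comparison, Poly I:C raised 4 of the 9 and lowered 5 at 2 h (61.1% of all entries called). At 6 h it raised 0 and lowered 7 (49.6% called). The 6 lymphocyte genes stayed under 1 FPKM in every library. Of 14 neutrophil genes, 10 were under 1 FPKM in all libraries and Elane, Ctsg and Retnlg were listed at 0 throughout. The neutrophil sum was nonetheless uneven, at 6.41 to 13.8 FPKM in the PBS-then-PBS groups and in PBS-then-LPS at 2 h, and 40.4 to 111 FPKM elsewhere. Most of it was Csf3r, the receptor for G-CSF, at 3.87 to 105 FPKM. The sum of 5 listed monocyte genes was 9.48 to 18.4 FPKM after PBS and 40.1 to 106 FPKM after Poly I:C, but its genes went in opposite directions. Ly6c1 stood at 0.0837 to 2.44 FPKM after PBS and 36.6 to 99.4 FPKM after Poly I:C, whereas F13a1 stood at 9.04 to 12.0 FPKM after PBS and 0.222 to 2.00 FPKM after Poly I:C. The sum of 5 listed dendritic cell genes ran from 2.15 to 26.4 FPKM, and that of 7 stromal genes from 21.7 to 158 FPKM, the latter uneven between the Poly I:C-then-LPS replicates at 2 h (158 and 56.8 FPKM). Whether these cells contributed to the results below was not tested. In bulk RNA, a change in the share of a cell type and a change in RNA per cell cannot be told apart.

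**Figure D1:**
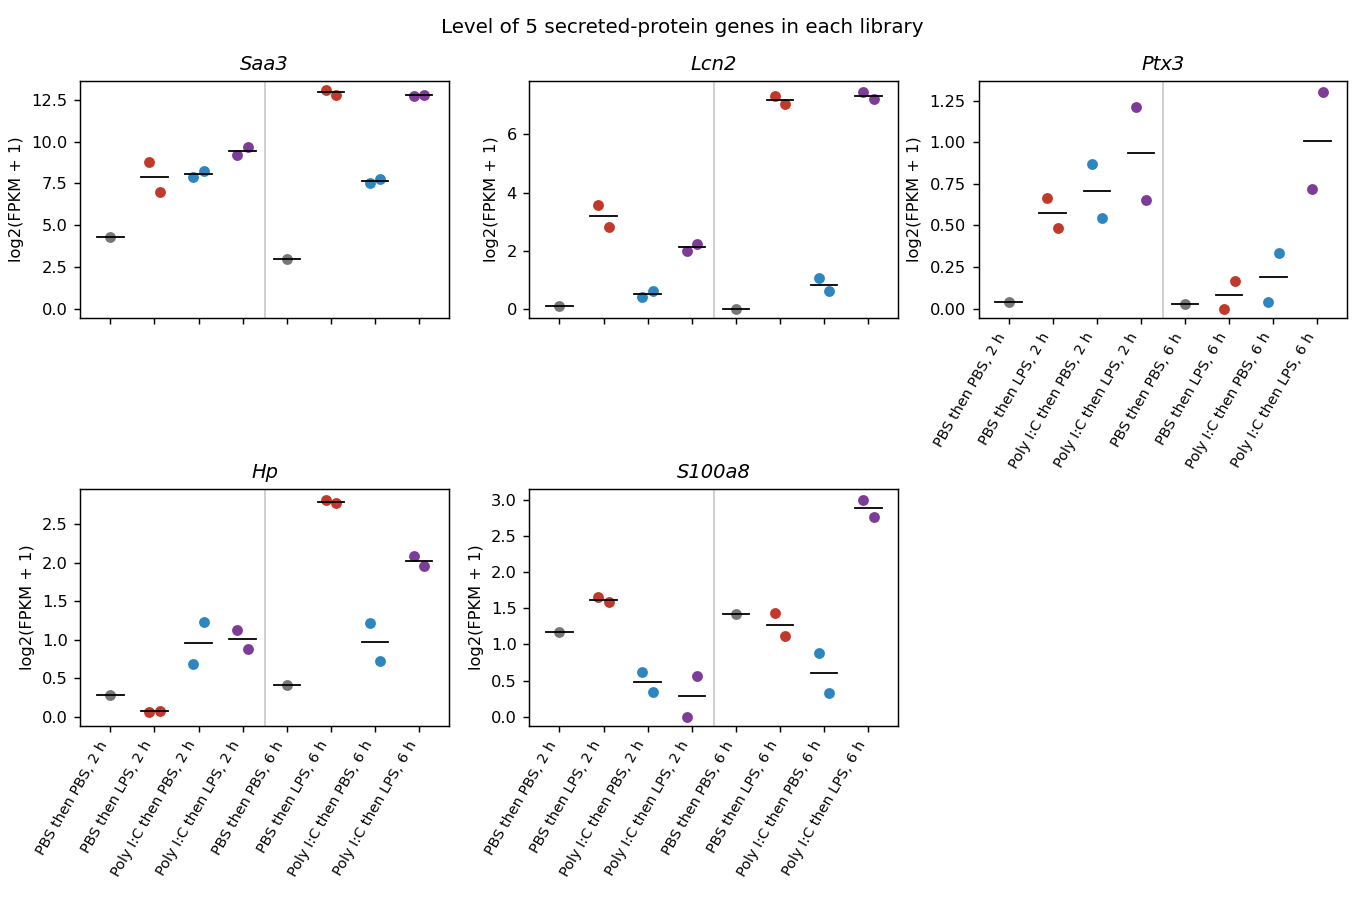
Level of Saa3, Lcn2, Ptx3, Hp and S100a8 as log2(FPKM + 1) in each of the 14 libraries by group, with points for libraries and bars for group means; each panel has its own scale and the grey line separates 2 h from 6 h. At 6 h, Saa3 and Lcn2 were highest in both LPS groups, Hp in PBS-then-LPS, and S100a8 in Poly I:C-then-LPS.

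Saa3 (chromosome 7, 46711998 to 46715676) reached a level among the highest of any transcript in these cells. At 2 h it stood at 18.3 FPKM in PBS then PBS, 434 and 124 FPKM in PBS then LPS, 235 and 299.6 FPKM in Poly I:C then PBS, and 592 and 820 FPKM in Poly I:C then LPS. Libraries of Poly I:C without LPS thus overlapped those of LPS for 2 h, and libraries given both stimuli lay above all others of that time. At 6 h it was 6.71 FPKM in PBS then PBS, 8837 and 7185 FPKM in PBS then LPS, 181 and 216 FPKM in Poly I:C then PBS, and 6890 and 7084 FPKM in Poly I:C then LPS. In the 4 libraries given LPS for 6 h it ranked between the 4th and the 6th of all named entries and made up 1.08% to 1.43% of their summed FPKM. In the PBS-then-PBS libraries it ranked 3449th and 6398th.

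The mean of Saa3 was 1194-fold higher in PBS then LPS than in PBS then PBS at 6 h, and 15.3-fold higher at 2 h, where the PBS-then-LPS replicates were far apart. After Poly I:C, the mean was 35.2-fold higher with LPS than without at 6 h, over a level that was itself 29.6-fold above PBS then PBS. On the log2 scale, the difference made by LPS was 10.01 after PBS and 5.14 after Poly I:C at 6 h, and 3.60 and 1.39 at 2 h. Poly I:C against PBS before LPS gave 1.58 at 2 h and -0.19 at 6 h, so the end levels at 6 h lay close together while those at 2 h did not. The values at 2 h depended on the PBS-then-LPS replicates. Without replicate 1 or replicate 2 of that group, the Poly I:C difference before LPS was 2.48 or 0.68, and the LPS difference after PBS was 2.70 or 4.50. The order of group means was PBS then LPS at 6 h, Poly I:C then LPS at 6 h, Poly I:C then LPS at 2 h, PBS then LPS at 2 h, Poly I:C then PBS at 2 h and at 6 h, and PBS then PBS at 2 h and at 6 h. Of these neighbours, only PBS then LPS at 2 h and Poly I:C then PBS at 2 h overlapped.

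Hp (chromosome 8, 109575130 to 109579172) was a low transcript whose highest level followed LPS for 6 h, with less in cells that had first received Poly I:C. At 2 h it stood at 0.211 FPKM in PBS then PBS, 0.0476 and 0.0486 FPKM in PBS then LPS, 0.603 and 1.35 FPKM in Poly I:C then PBS, and 1.19 and 0.840 FPKM in Poly I:C then LPS. At 6 h it was 0.333 FPKM in PBS then PBS, 6.07 and 5.83 FPKM in PBS then LPS, 1.32 and 0.652 FPKM in Poly I:C then PBS, and 3.27 and 2.89 FPKM in Poly I:C then LPS. The lowest 2 values of all belonged to LPS for 2 h without Poly I:C, and the highest 2 to LPS for 6 h without Poly I:C.

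LPS after PBS raised Hp at 6 h by 2.38 ± 0.27 log2 (SE; limma adjusted p = 5.19e-05). LPS after Poly I:C raised it by 1.06 ± 0.22 (limma adjusted p = 0.00274). The difference between these responses was itself called, at -1.32 ± 0.34 (limma adjusted p = 0.0160), but not without Poly I:C-then-LPS replicate 2 (limma adjusted p = 0.0509). At 2 h LPS gave -0.21 after PBS and 0.05 after Poly I:C, neither called (limma adjusted p = 0.656 and 0.907). Poly I:C before LPS went in opposite directions at the 2 times: Hp was higher by 0.94 ± 0.22 at 2 h (limma adjusted p = 0.00371) and lower at 6 h (-0.77 ± 0.22, limma adjusted p = 0.0142). The difference of these effects between 6 h and 2 h was -1.71 ± 0.31 (limma adjusted p = 0.00139). The call at 6 h was lost without either PBS-then-LPS replicate (limma adjusted p = 0.0641 and 0.0524) and without Poly I:C-then-LPS replicate 2 (limma adjusted p = 0.0773).

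Ptx3 was near the limit of detection, with at least 1 FPKM in only 2 libraries, both of them given Poly I:C and then LPS. It therefore entered the fit through the group in which it was highest, so calls against that group are partly set by the filter. Its entry spans chromosome 3, 66053558 to 66296837, a locus shared with entries for Veph1, Gm26442 and Tpi-rs2. In GENCODE the Ptx3 gene itself, at 66219910 to 66225805, lies inside Veph1 on the opposite strand. The library kit marked strand, but whether counting used it is not given in the sources used here, so reads of the overlapping genes may not be fully separated. At 2 h Ptx3 stood at 0.0287 FPKM in PBS then PBS, 0.583 and 0.397 FPKM in PBS then LPS, 0.824 and 0.460 FPKM in Poly I:C then PBS, and 1.32 and 0.572 FPKM in Poly I:C then LPS. At 6 h it was 0.0207 FPKM in PBS then PBS, 0 and 0.123 FPKM in PBS then LPS, 0.0300 and 0.260 FPKM in Poly I:C then PBS, and 0.644 and 1.47 FPKM in Poly I:C then LPS. The 3 stimulated groups overlapped at 2 h, whereas at 6 h both libraries given Poly I:C and then LPS lay above all other libraries of that time.

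At 6 h, Ptx3 differed by 0.93 ± 0.25 log2 for Poly I:C before LPS and by 0.82 ± 0.25 for LPS after Poly I:C. Both were called in the fit, but the filter admitted Ptx3 only through the high group of these comparisons. With no filter on low values the adjusted p-values by limma were 0.0289 and 0.0494. LPS after PBS gave 0.05 at that time (limma adjusted p = 0.911). The interaction was not called at either time. Both calls were lost without Poly I:C-then-LPS replicate 2 (limma adjusted p = 0.0968 and 0.170), the first also without PBS-then-LPS replicate 1 (limma adjusted p = 0.0633), and the other also without Poly I:C-then-PBS replicate 1 (limma adjusted p = 0.114). At 2 h no difference was called, with 0.53 for LPS after PBS, 0.67 for Poly I:C without LPS, and 0.36 for Poly I:C before LPS (limma adjusted p = 0.280, 0.0976 and 0.231).

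Lcn2 (chromosome 2, 32384633 to 32388230) went from next to nothing to a well expressed transcript after LPS, and unlike Saa3 it was barely present after Poly I:C without LPS. At 2 h it stood at 0.0657 FPKM in PBS then PBS, 10.8 and 6.01 FPKM in PBS then LPS, 0.331 and 0.528 FPKM in Poly I:C then PBS, and 2.98 and 3.74 FPKM in Poly I:C then LPS. At 6 h it was listed at 0 in PBS then PBS and stood at 159 and 133 FPKM in PBS then LPS, 1.09 and 0.511 FPKM in Poly I:C then PBS, and 176 and 147 FPKM in Poly I:C then LPS. Both Poly I:C-then-LPS libraries lay under both PBS-then-LPS libraries at 2 h, and the same groups overlapped at 6 h.

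LPS after PBS raised Lcn2 by 3.09 ± 0.31 log2 at 2 h (limma adjusted p = 8.64e-05) and by 7.19 ± 0.31 at 6 h (limma adjusted p = 5.83e-08). After Poly I:C, LPS raised it by 1.61 ± 0.25 at 2 h (limma adjusted p = 0.00119) and by 6.51 ± 0.25 at 6 h (limma adjusted p = 7.48e-08). Poly I:C before LPS lowered Lcn2 at 2 h, at -1.07 ± 0.25 (limma adjusted p = 0.00404), and made no called difference at 6 h, at 0.15 ± 0.25 (limma adjusted p = 0.663). The difference of these effects between 6 h and 2 h was 1.21 ± 0.36 (limma adjusted p = 0.0189). This call was lost with no filter (limma adjusted p = 0.0549) and without Poly I:C-then-LPS replicate 1 of 2 h (0.0664), PBS-then-LPS replicate 2 of 6 h (0.0710) or Poly I:C-then-LPS replicate 1 of 6 h (0.0697). The interaction at 2 h was -1.49 ± 0.40 and missed the threshold (limma adjusted p = 0.0721), but passed it without PBS-then-LPS replicate 2 (limma adjusted p = 0.00958). Poly I:C without LPS gave 0.42 ± 0.31 at 2 h and 0.83 ± 0.31 at 6 h, neither called (limma adjusted p = 0.291 and 0.0618).

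Lcn2 and Saa3 therefore differed in the direction of the Poly I:C effect on the early LPS level. At 2 h after LPS, Saa3 was higher in cells given Poly I:C in both libraries (592 and 820 against 434 and 124 FPKM), while Lcn2 was lower in both (2.98 and 3.74 against 10.8 and 6.01 FPKM). At 6 h the Poly I:C differences were -0.19 for Saa3 and 0.15 for Lcn2. After Poly I:C without LPS at 2 h, Saa3 already stood at 235 and 299.6 FPKM, and Lcn2 at 0.331 and 0.528 FPKM. The log2 difference made by LPS at 2 h was smaller after Poly I:C for both genes. It was 1.39 against 3.60 after PBS for Saa3 (not tested), and 1.61 against 3.09 for Lcn2 (interaction not called). The difference between the genes was not tested.

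S100a8 (chromosome 3, 90669071 to 90670034) was low in every library and highest in cells given both stimuli. At 2 h it stood at 1.25 FPKM in PBS then PBS, 2.15 and 1.99 FPKM in PBS then LPS, 0.532 and 0.264 FPKM in Poly I:C then PBS, and 0 and 0.478 FPKM in Poly I:C then LPS. At 6 h it was 1.67 FPKM in PBS then PBS, 1.70 and 1.16 FPKM in PBS then LPS, 0.851 and 0.257 FPKM in Poly I:C then PBS, and 7.01 and 5.81 FPKM in Poly I:C then LPS. Every library given Poly I:C lay under every library given PBS first, except the 2 given LPS for 6 h, which lay above all the rest.

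The log2 difference for Poly I:C before LPS was -1.34 at 2 h and 1.61 at 6 h. LPS after Poly I:C gave -0.20 at 2 h, where the groups overlapped, and 2.28 at 6 h. LPS after PBS gave 0.45 and -0.15, both smaller than the value for Poly I:C then LPS at 6 h. The 6 h mean in Poly I:C then LPS was 4.48-fold that in PBS then LPS. The log2 difference from Poly I:C then PBS became 2.55 or 2.00 when replicate 1 or replicate 2 of that low group was left out. The summed neutrophil markers in the 2 LPS groups at 6 h overlapped, at 55.8 to 77.8 FPKM with Poly I:C and 51.0 to 62.9 FPKM without. Most of each sum was Csf3r, at 72.5 and 51.0 FPKM with Poly I:C and 44.4 and 58.3 FPKM without. Camp was higher with Poly I:C (1.32 and 1.39 against 0.362 and 0.473 FPKM) and Mmp8 lower (0.261 and 0.545 against 1.48 and 1.12 FPKM). Whether neutrophils contributed to the level of S100a8 was not tested. S100a9, the partner of S100a8 (chromosome 3, 90692632 to 90695721), was listed at 0 in all 14 libraries. A value of exactly 0 in a table without counts can be a failed estimate, so the absence of the transcript cannot be read from it.

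**Figure D2:**
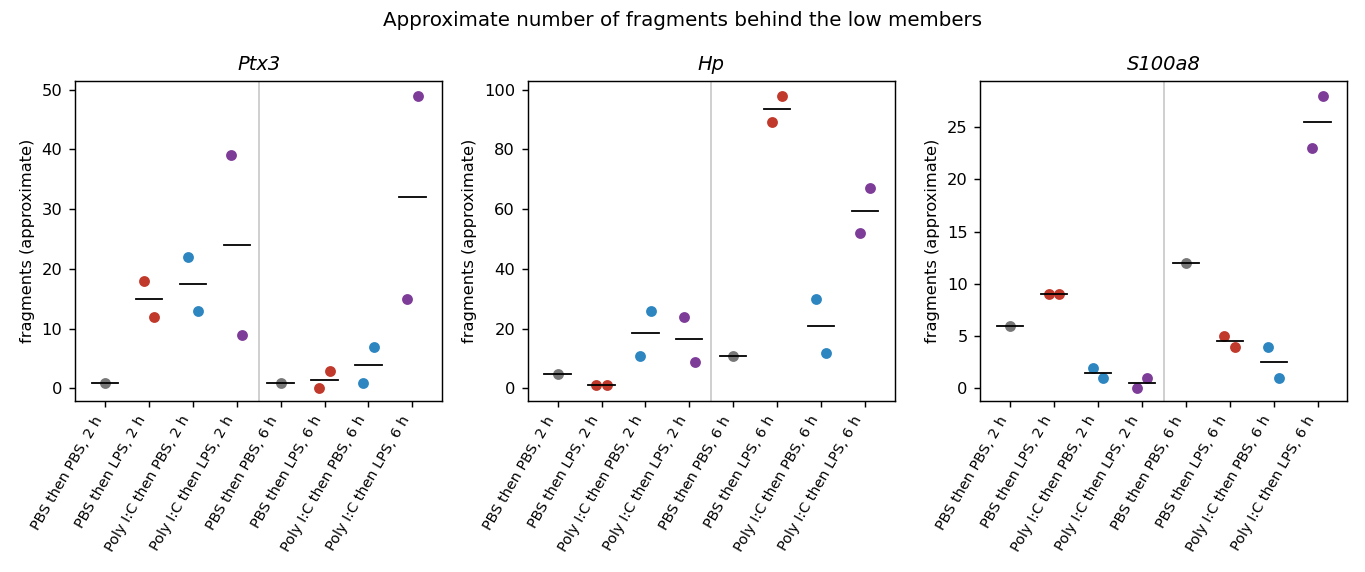
Approximate number of fragments behind the FPKM of Ptx3, Hp and S100a8 in each library, on a linear axis from 0, with bars for group means. The highest library had 49 fragments for Ptx3, 98 for Hp and 28 for S100a8, and many libraries had fewer than 10.

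These low levels rested on few fragments. Where the smallest value of a gene above 0 is taken as 1 fragment, the other values give approximate numbers, which would be higher if that smallest value held more. On this basis S100a8 had 23 and 28 fragments in Poly I:C then LPS at 6 h, 5 and 4 in PBS then LPS at 6 h, and 0 and 1 in Poly I:C then LPS at 2 h. Hp had 1 fragment in each PBS-then-LPS library at 2 h, against 89 and 98 at 6 h. Ptx3 had 15 and 49 fragments in Poly I:C then LPS at 6 h, against 0 and 3 in PBS then LPS. Lcn2 had 146 and 79 fragments in PBS then LPS at 2 h and 39 and 26 in Poly I:C then LPS, so its lower level there rested on a larger number.

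**Figure D3:**
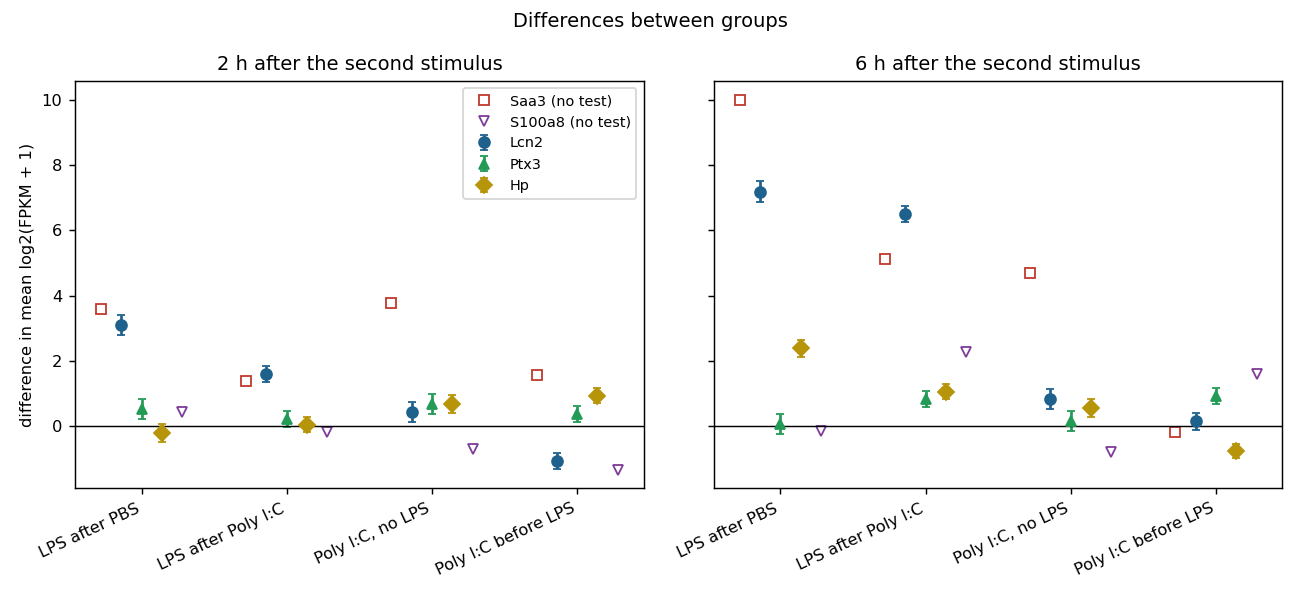
Difference of mean log2(FPKM + 1) between groups for 4 comparisons at 2 h (left) and 6 h (right). Filled symbols with bars are Lcn2, Ptx3 and Hp with 1 SE, and open symbols are Saa3 and S100a8, described without a test. At 6 h LPS after PBS raised Lcn2 by 7.19 and Hp by 2.38, while that of Ptx3 was 0.05.

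Across the 3 tested genes, LPS after PBS changed 1 at 2 h (Lcn2, higher), where 15.9% of all 11977 entries were called in either direction, and 2 at 6 h (Lcn2 and Hp, higher), where 43.4% were called. LPS after Poly I:C changed 1 at 2 h (Lcn2, higher; 22.8% of all entries called) and 3 at 6 h (all higher, with Ptx3 in the fit only through the high group; 43.9% called). Poly I:C without LPS changed 0 of the 3 at 2 h (47.3% of all entries called) and 0 at 6 h (34.5% called). At an unadjusted p under 0.05 limma gave 1 at 2 h (Hp) and 1 at 6 h (Lcn2). Poly I:C before LPS changed 2 at 2 h (Lcn2 lower, Hp higher; 61.1% of all entries called) and 2 at 6 h (Ptx3 higher, Hp lower; 49.6% called). For Poly I:C before LPS at 6 h, Ptx3 was again in the fit only through the high group. With so many entries called throughout, and only 3 genes tested, these counts do not set the genes apart from the rest.

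The difference between the LPS responses with and without Poly I:C was called for 0 of the 3 genes at 2 h by limma (1, Lcn2, at an unadjusted p under 0.05; 4.29% of all entries called) and for Hp at 6 h (29.4% called). The change of the Poly I:C effect before LPS from 2 h to 6 h was called for Lcn2 and Hp, at 1.21 and -1.71 (44.4% of all entries called). From 2 h to 6 h after PBS then LPS, Lcn2 rose by 4.01 and Hp by 2.73 (limma adjusted p = 8.49e-07 and 4.54e-06; 49.4% of all entries called), and Saa3 differed by 5.09. After Poly I:C then LPS, Lcn2 rose by 5.22 and Hp by 1.02 (limma adjusted p = 1.21e-06 and 0.00436; 40.0% called), while Saa3 differed by 3.32 and S100a8 by 2.60. In cells given Poly I:C without LPS, 0 of the 3 changed between the times by limma (0 also at an unadjusted p under 0.05; 30.4% called). Without LPS the largest of their differences was that of Ptx3, at -0.52 (limma adjusted p = 0.145).

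Other acute-phase genes were taken from a list of 22, of which 8 passed the filter with an entry of their own. LPS after PBS raised 4 of the 8 at 6 h (median 1.06 against 0.02 for all entries, 43.4% of them called) and 2 at 2 h (15.9% called). LPS after Poly I:C raised 7 at 6 h (median 2.10 against -0.03, 43.9% called) and 4 at 2 h (22.8% called). Poly I:C without LPS raised 4 at each time, a share near that of all entries at 2 h (47.3% called; 34.5% at 6 h). These counts cover only genes that passed the filter, and Orm1, Orm2 and Orm3, picked out after their values were seen, reached 1 FPKM only in libraries given Poly I:C. Il1rn, which encodes the IL-1 receptor antagonist, was the most abundant, and like Saa3 it was already high after Poly I:C without LPS, at 1009 and 1005 FPKM against 60.5 FPKM in PBS then PBS at 2 h (4.03 ± 0.18 log2, limma adjusted p = 9.45e-08). Orm1, an orosomucoid carrier protein, stood at 18.7 and 23.3 FPKM in Poly I:C then LPS at 2 h. In PBS then LPS it was at 0.730 and 0.384 FPKM, a difference of 3.82 ± 0.18 log2. No p-value is given, because Orm1 passed the filter only through libraries given Poly I:C.

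Poly I:C before LPS raised 6 of these 8 genes and lowered 1 at 2 h (median 1.78 against 0.05 for all entries, 61.1% called). At 6 h it raised 4 and lowered 2 (median 0.82 against about 0, 49.6% called). Orm1, Orm2 and Orm3 were in the fit only through libraries given Poly I:C, so these counts and medians lean towards higher values. Cp, which encodes the copper-carrying ferroxidase ceruloplasmin, differed in the same directions as Hp. It reached 108 FPKM in each PBS-then-LPS library at 6 h and 48.4 and 43.5 FPKM in Poly I:C then LPS (-1.21 ± 0.20, limma adjusted p = 7.33e-04), yet at 2 h was higher with Poly I:C, at 11.6 and 10.9 against 3.44 and 2.49 FPKM (1.64 ± 0.20, limma adjusted p = 6.23e-05). Serpina3f, a serine protease inhibitor, likewise stood at 19.4 and 30.9 FPKM in PBS then LPS at 6 h and 4.51 and 3.02 FPKM in Poly I:C then LPS (-2.44 ± 0.23, limma adjusted p = 1.79e-05), after being higher with Poly I:C at 2 h (2.66 ± 0.23, limma adjusted p = 5.22e-06). The change of the effect between the times was called for both, at -2.85 ± 0.29 for Cp and -5.10 ± 0.33 for Serpina3f (limma adjusted p = 3.39e-05 and 1.86e-06).

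Of 19 other listed antimicrobial genes, 4 passed the filter with an entry of their own. Poly I:C before LPS lowered 1 of the 4 at 2 h. At 6 h it lowered 3 and raised 1 (median -1.45 against about 0 for all entries). Of all entries, 61.1% were called at 2 h and 49.6% at 6 h. Lyz2, the macrophage lysozyme, was among the most abundant, at 10930 and 11773 FPKM in PBS then LPS at 6 h and 2408 and 2641 FPKM in Poly I:C then LPS (-2.17 ± 0.18, limma adjusted p = 8.40e-06). Wfdc17, a small secreted WAP-domain protein, stood at 1839 and 1740 against 448 and 421 FPKM (-2.04 ± 0.18, limma adjusted p = 1.10e-05). Lyz1, a second lysozyme, was low and fell as well, from 2.92 and 2.76 FPKM to 1.21 and 1.03 FPKM (-0.86 ± 0.20, limma adjusted p = 0.00544). Camp, the cathelicidin antimicrobial peptide stored in neutrophil granules, stood at 1.32 and 1.39 FPKM with Poly I:C against 0.362 and 0.473 FPKM without. It reached 1 FPKM only in libraries given Poly I:C and so entered the fit through groups in which it was high. Its highest level was in the same group as that of S100a8. Slpi shared an entry with a microRNA and was not counted, and it reached 1 FPKM only in libraries given Poly I:C. Unlike Lyz2, Wfdc17 and Lyz1, it was higher with Poly I:C before LPS. It stood at 7.02 and 11.7 FPKM against 0.694 and 0.402 FPKM in PBS then LPS at 2 h. At 6 h it stood at 3.40 and 5.05 against 0.561 and 0.837 FPKM.

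Of 14 other S100 genes listed, 6 passed the filter with an entry of their own. Poly I:C before LPS lowered 5 and raised 0 of these 6 at 6 h (median -1.75 against about 0 for all entries, 49.6% of them called) and lowered 3 and raised 0 at 2 h (61.1% called). S100a4, which binds the cytoskeleton motor non-muscle myosin, stood at 881 and 862 FPKM in PBS then LPS at 6 h and 43.3 and 68.2 FPKM in Poly I:C then LPS (-3.98 ± 0.31, limma adjusted p = 4.72e-06). S100a10, the partner of annexin A2, stood at 606 and 785 FPKM against 159 and 154 FPKM (-2.13 ± 0.19, limma adjusted p = 1.31e-05). S100a11 and S100a1 fell in the same comparison as well (-1.76 ± 0.20 and -1.73 ± 0.23, limma adjusted p = 5.12e-05 and 1.63e-04).

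Among 11 receptors listed for these secreted proteins, 6 passed the filter with an entry of their own. Poly I:C before LPS raised 2 and lowered 3 of them at each time. Of all entries, 61.1% (2 h) and 49.6% (6 h) were called. Tlr2, a bacterial lipoprotein receptor that also binds serum amyloid A, stood at 284 and 265 FPKM in Poly I:C then LPS at 6 h and at 174 and 172 FPKM in PBS then LPS (0.66 ± 0.15, limma adjusted p = 0.00420). Fpr1, a formyl peptide receptor, stood at 90.2 and 89.7 against 61.9 and 46.5 FPKM (0.74 ± 0.17, limma adjusted p = 0.00468). The scavenger receptors Cd36 and Scarb1 were lower, at -2.62 ± 0.23 and -1.66 ± 0.14 (limma adjusted p = 9.71e-06 and 8.32e-06).

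**Figure D4:**
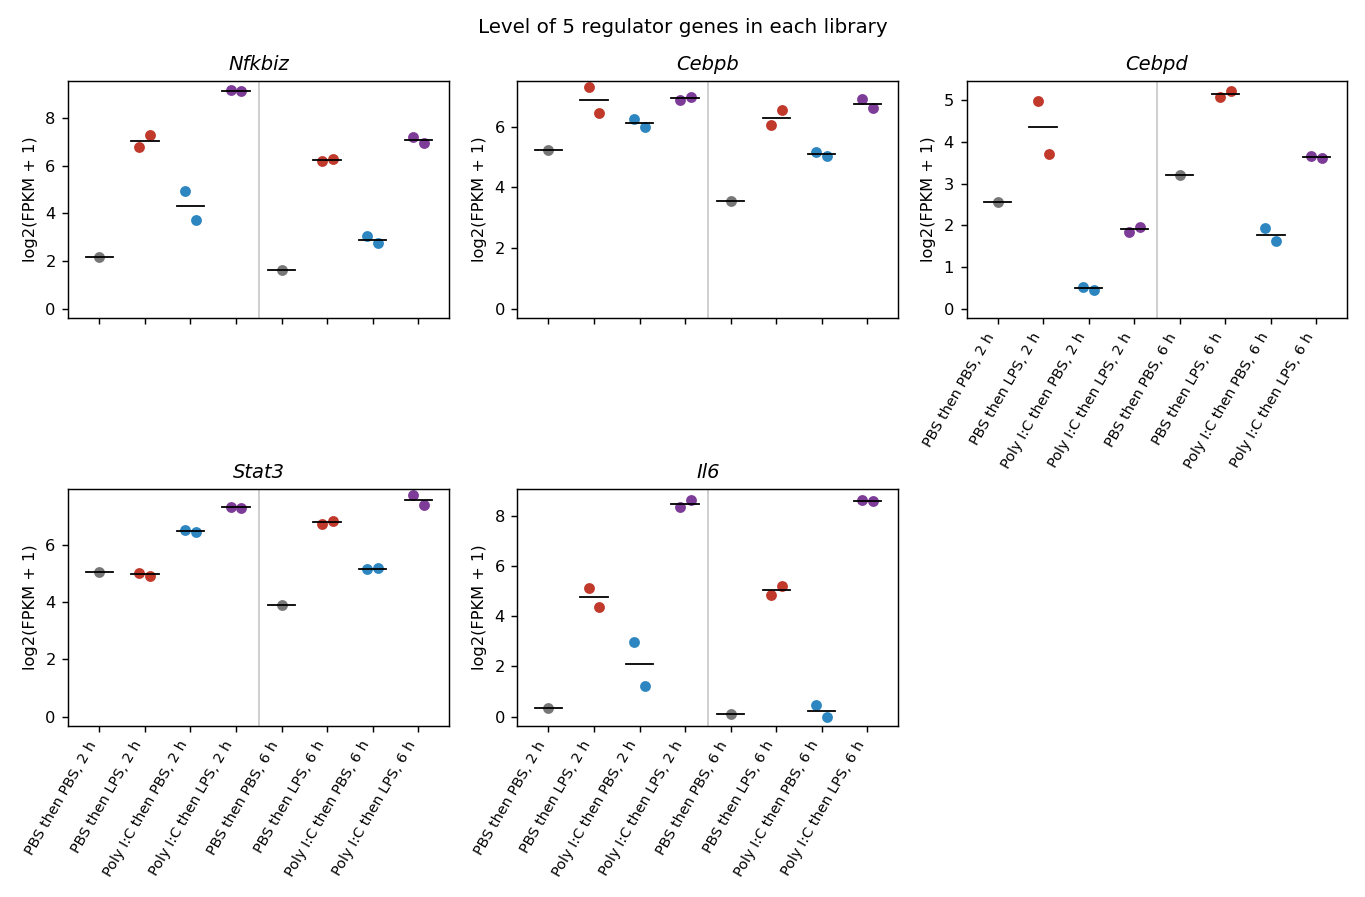
Level of Nfkbiz, Cebpb, Cebpd, Stat3 and Il6 as log2(FPKM + 1) in each library by group, with points for libraries and bars for group means; each panel has its own scale and the grey line separates 2 h from 6 h. Cebpd was lower with Poly I:C in every pair of groups, whereas Nfkbiz, Stat3 and Il6 were highest in Poly I:C then LPS at each time.

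A list of 22 genes linked to control of the acute-phase response held cytokines, cytokine receptors, transcriptional regulators and Socs3, a signalling inhibitor. Of these, 19 passed the filter with an entry of their own. LPS after PBS raised 14 and lowered 1 at 2 h (15.9% of all entries called) and raised 15 and lowered 1 at 6 h (43.4% called). Poly I:C without LPS raised 12 and lowered 4 at 2 h (47.3% called), and raised 9 and lowered 2 at 6 h (34.5% called). Poly I:C before LPS raised 10 and lowered 4 at 2 h (median 0.53 against 0.05 for all entries, 61.1% called). At 6 h it raised 12 and lowered 4 (median 0.72 against about 0, 49.6% called). Among the 5 regulators followed in detail, Cebpd was lower and Nfkbiz, Stat3 and Il6 were higher at both times.

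Cebpd, which encodes C/EBP-delta, an acute-phase regulator, was lower in cells given Poly I:C whether or not LPS followed. At 2 h it stood at 30.9 and 12.2 FPKM in PBS then LPS and at 2.58 and 2.92 FPKM in Poly I:C then LPS (-2.45 ± 0.32, limma adjusted p = 8.57e-05). At 6 h it was 32.9 and 36.4 against 11.6 and 11.4 FPKM (-1.51 ± 0.32, limma adjusted p = 0.00296). Without LPS at 2 h it was 0.444 and 0.361 FPKM after Poly I:C against 4.88 FPKM after PBS (-2.07 ± 0.39, limma adjusted p = 0.00161). At 2 h after LPS this was the direction of Lcn2 and S100a8 and the opposite of Saa3 and Hp. At 6 h, with Cebpd still lower, the Poly I:C differences were 0.15 for Lcn2, 1.61 for S100a8, -0.19 for Saa3 and -0.77 for Hp. No link between Cebpd and these genes was tested. Cebpb, its relative C/EBP-beta, showed no called difference with Poly I:C before LPS, at 118 and 126 against 159 and 87.8 FPKM at 2 h (0.04 ± 0.25, limma adjusted p = 0.901) and 0.46 ± 0.25 at 6 h (limma adjusted p = 0.159).

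Nfkbiz, which encodes IkB-zeta, a nuclear cofactor of NF-kB required for LPS induction of Lcn2 in macrophages, was higher with Poly I:C before LPS, at 581 and 563 against 110 and 157 FPKM at 2 h (2.11 ± 0.32, limma adjusted p = 2.48e-04). At 6 h the difference was 0.85 ± 0.32 (limma adjusted p = 0.0483). Lcn2 went the other way in this comparison at 2 h, at -1.07, and no link between the 2 genes was tested. Stat3, the transducer of IL-6 signals, stood at 158 and 153 against 31.1 and 29.1 FPKM at 2 h (2.33 ± 0.12, limma adjusted p = 1.61e-07). Il6 itself was higher at both times, by 3.74 ± 0.46 and 3.57 ± 0.46 (limma adjusted p = 5.96e-05 and 1.34e-04), as were Tnf and the IL-1 genes Il1a and Il1b. Spi1, which encodes the macrophage factor PU.1, was called at 6 h alone, at -0.59 ± 0.11 (limma adjusted p = 0.00188; 0.25 ± 0.11 and 0.0851 at 2 h). The Poly I:C effect before LPS changed from 2 h to 6 h for Stat3 (-1.54 ± 0.18, limma adjusted p = 7.38e-05), Spi1 (-0.83 ± 0.16, 0.00214) and Nfkbiz (-1.26 ± 0.45, 0.0454). That change was not called for Cebpd, Cebpb or Il6 (limma adjusted p = 0.117, 0.369 and 0.849).

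Levels of Saa3, Lcn2, Ptx3, Hp and S100a8 were also compared with each other and with other tested entries over the 14 libraries. The measure was Pearson's r of log2(FPKM + 1). These are descriptions over libraries that fall into 8 groups and share the LPS and Poly I:C stimuli. Saa3 and Lcn2 had r = 0.89, Saa3 and Hp 0.83, and Lcn2 and Hp 0.78, whereas Ptx3 and Hp had -0.02 and S100a8 had 0.68 with Lcn2 and 0.37 with Saa3. Among 6543 candidate entries naming 1 gene, those most like Saa3 were Tarm1, an activating receptor of myeloid cells (r = 0.96), Rac2 (0.96) and Tma16 (0.95). Among those most like Lcn2 were Dtx2 (0.98) and Dtwd1 (0.95), and those most like Hp were Tbc1d13 (0.94), Cp (0.94) and Pnpt1 (0.93). S100a8 was most like Rin3 (0.94), Ptplad1 (0.89) and Galnt10 (0.89). Ptx3 had the loosest match, with Gpr132 and Ppie at 0.87 and Ciapin1 at 0.86.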

How the data were processed

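Per the labels' protocols, RNA was made into stranded mRNA libraries and sequenced in paired 76 bp reads. Per the submitters' processing notes, TopHat2, Cufflinks and Cuffnorm were used, with build mm9. Versions and options are not given in the sources used here. The authors deposited FPKM values scaled between libraries, with 39721 entries, of which 1859 have no name. Of 33853 entries naming a GENCODE gene, 33796 overlapped its GRCm38 position, so coordinates are given as GRCm38.

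The fit covered named entries that reached 1 FPKM in 2 or more libraries. limma 3.58.1 (R 4.3.3) was fitted to log2(FPKM + 1) with 1 mean per group, empirical Bayes moderation and an intensity trend, with 6 residual degrees of freedom. Tests were 2-sided. Groups of 1 library borrow the spread of the others. The members, gene lists and tests were chosen with earlier results of these data known. Besides the 6 genes, the text names the 3 entries most like each (1 of them is not reported here), the 4 most abundant tested genes of each list, and Nfkbiz, Cebpb, Cebpd, Stat3 and Il6. Scripts were tested on simulated data. Alternatives were median-of-ratios scaling, a pseudocount of 0.1, no filter, no trend, 1 time alone, the PBS-then-PBS libraries joined in 1 control group, a replicate block, Spearman's rho, and leaving out each replicate. Entries naming 1 gene only, and the change of the Poly I:C effect between times, were added after seeing the data. Like-numbered replicates deviated together at r = -0.19 to 0.078 over 15 pairs of groups, so the numbers were not taken to pair libraries.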

Additional observations from a re-analysis of the deposited data

Results flagged for a closer look

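Several effects differed between times or between stimuli. The Poly I:C effect before LPS changed from 2 h to 6 h by 1.21 log2 for Lcn2 (limma adjusted p = 0.0189) and by -1.71 for Hp (limma adjusted p = 0.00139), in a test of the difference. The call for Lcn2 was lost with no filter (limma adjusted p = 0.0549) and without any of 3 libraries (0.0664 to 0.0710), and that for Hp was not. The LPS response of Hp at 6 h was smaller after Poly I:C than after PBS, an interaction of -1.32 (limma adjusted p = 0.0160; 0.0509 without Poly I:C-then-LPS replicate 2).

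For other effects, every library lay on one side at one time and on the other side at the other time, and the difference was not tested. The Poly I:C effect on Saa3 before LPS differed by -1.77 between 6 h and 2 h, with opposite signs. It was -2.67 or -0.87 without PBS-then-LPS replicate 1 or replicate 2 of 2 h. The LPS response of Hp in cells given PBS first differed by 2.59 between the times, from below the control library at 2 h to above it at 6 h. The 2 h side, at -0.21, was not called. It rested on about 5 fragments in the 1 control library and 1 in each LPS library. For S100a8 the Poly I:C effect before LPS differed by 2.95 between 6 h and 2 h, and the same value separates its change over time after Poly I:C then LPS from that after PBS then LPS.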

How the results depend on the processing

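No direction of a called difference reversed under any alternative run. For Lcn2, Ptx3 and Hp, 421 of 450 values kept their side of the threshold, 16 gained a call and 13 lost it. The cause was not tested for these changes. Counts here and below include Ptx3, whose calls against Poly I:C then LPS at 6 h are partly set by the filter. With a pseudocount of 0.1, calls among the 3 genes became 3 for Poly I:C without LPS at 2 h and 1 at 6 h (0 and 0 before), 1 for the interaction at 2 h (0 before) and 2 at 6 h (1 before), and 1 for Poly I:C before LPS at 6 h (2 before). Lcn2 then gave 1.65 and 3.09 for Poly I:C without LPS (limma adjusted p = 0.0113 and 4.38e-04). With the PBS-then-PBS libraries joined in 1 control group, calls became 2 and 2 for Poly I:C without LPS and 1 for the interaction at 2 h. The 6 h libraries alone gave 1 for Poly I:C without LPS. Without the filter, the change of the Poly I:C effect between times was called for 1 gene instead of 2. Leaving out 1 replicate gave 0 to 2 calls for Poly I:C before LPS at 6 h, 0 to 1 for either interaction and for Poly I:C without LPS at either time, and 1 to 2 for the change between times. Where a group is left with 1 library, its spread is assumed to be that of the others. For S100a8, LPS after Poly I:C at 2 h became 0.09 without replicate 1 of Poly I:C then LPS, and -0.48 without replicate 2, against -0.20. The share of all entries called for LPS after PBS at 2 h was 9.82% with 2 h libraries alone, 24.0% with 1 control group and 30.9% without PBS-then-LPS replicate 2, against 15.9%. For LPS after Poly I:C at 2 h it was 12.9% to 15.1% without 1 replicate (22.8% before), for the interaction at 2 h 1.63% with 2 h libraries alone and 2.30% to 13.7% without 1 replicate (4.29% before), and for Poly I:C without LPS over time as low as 16.8% (30.4% before). With Spearman's rho, the 3 genes most like each member kept 1 of 3 for Saa3 and Ptx3 and 0 of 3 for Lcn2, Hp and S100a8. A replicate block, over the 12 numbered libraries, changed no call among the 3 genes (Lcn2 for Poly I:C before LPS at 2 h: -1.07, limma adjusted p = 0.00349). Median-of-ratios scaling changed no call either. The lone PBS-then-PBS library at each time, and the few fragments behind Ptx3, Hp and S100a8, limit precision.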
